A study of Mus musculus with 18 samples.

Results

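The genes described here are the nuclear-encoded subunits of respiratory chain complexes I to IV, the Nduf, Sdh, Uqcr and Cox genes, as measured in mouse left ventricle. Of 53 listed subunits, 52 had a feature among the 24479 features of the array, 31 in complex I, 4 in complex II, 7 in complex III and 10 in complex IV, and Uqcrb was not matched. They were chosen by name, through the platform's gene table, and not by their values. Hearts of FFFF and DKO mice were sampled after a sham operation or after ischemia/reperfusion (I/R) with 1 or 5 days of reperfusion, which makes 6 groups of 3 arrays each. FFFF mice carry loxP sites on both alleles of Camk2d and Camk2g and no Cre, and the labels call them wild-type (noCre). DKO mice carry the same floxed alleles together with Cre under the α-MHC promoter, which is active in cardiomyocytes, so other cells of the heart keep both kinases. All mice had a mixed background of 129/Sv and C57BL/6, and the methods give an age at surgery of 10 to 15 weeks for DKO mice. In I/R, the left anterior descending artery was tied for 60 min and then released. I/R samples are labelled as the ischemic area of the left ventricular myocardium and sham samples as left ventricular myocardium, so the region sampled changed together with the surgery and the effects of both cannot be told apart.

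The respiratory chain lies in the inner mitochondrial membrane. Complex I takes electrons from NADH and complex II from succinate, both pass them to coenzyme Q, complex III moves them on to cytochrome c, and complex IV hands them to oxygen. Complexes I, III and IV pump protons, and ATP synthase uses the resulting gradient. Most subunits are encoded in the nucleus, and a small set, including the membrane core of complex I, cytochrome b and the catalytic core of complex IV, is encoded by mitochondrial DNA. The heart is among the organs richest in mitochondria, and part of complex IV occurs there as isoforms made mainly in striated muscle. Of 13 mitochondrially encoded subunits listed for comparison, 0 matched a feature, so the values below cover the nuclear part of the chain.

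Transcription of these genes is known to involve NRF1, GABP (NRF2), YY1 and the estrogen-related receptors (ERR), with MEF2 acting on genes of striated muscle. To show what the members share in sequence, the RefSeq promoters of build GRCm38.p6 were searched, each running from 250 bases before to 50 after the start of transcription, and 42 members had a window. The NRF1 spelling TGCGCATG, read on both strands, was present in 6 of 42 member genes (14.3%) and in 2.12% of all 32851 promoter windows. The YY1 spelling AAGATGGC was present in 7 members (16.7%) and in 2.75% of all windows, the GABP spelling CCGGAAGT in 2 (4.76%) and 3.89%, and the ERR spelling AAGGTCA in 2 (4.76%) and 4.72%. The MEF2 spelling TATTTATA was found in 0 members and 1.7% of all windows. The shares of members count genes and those beside them count windows, with 32851 windows for 27025 genes, so their units differ. These are single spellings chosen from several that were looked at, and a match is a description of letters, not of binding. The matches of NRF1 are shown because they span complexes I, III and IV, each read 5′ to 3′ on the strand of the gene, with the motif or its reverse complement in capitals.
Cox5b (chr1:36691424-36691453, plus strand, motif 52 bases before the start): agaggcagaacTGCGCATGtgcggcgtcta
Ndufa6 (chr15:82354355-82354384, minus strand, 82 bases before): ccgcggtagagCATGCGCAttgcagagccc
Ndufa8 (chr2:36049327-36049356, minus strand, 7 bases before): cgctggagacgCATGCGCAgatggtaccgg
Ndufb6 (chr4:40279481-40279510, minus strand, 78 bases before): agagagggcttTGCGCATGagcagagcctg
Ndufb8 (chr19:44555419-44555448, minus strand, 6 bases after): tgacccgctttTGCGCATGtgcagagtgaa
Uqcrc1 (chr9:108936666-108936695, plus strand, 30 bases after): agactccgctcTGCGCATGcgcagcgcggc
The Uqcrc1 stretch holds the motif on both strands, in overlapping positions. The YY1 spelling lay downstream of the start in all 7 members that hold it, as in these 3 genes of complex I, shown as the ones with the smallest p among them at 5 days.
Ndufa9 (chr6:126849097-126849126, minus strand, 30 bases after): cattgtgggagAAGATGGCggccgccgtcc
Ndufa3 (chr7:3617384-3617413, plus strand, 23 bases after): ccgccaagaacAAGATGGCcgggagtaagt
Ndufc1 (chr3:51408915-51408944, minus strand, 23 bases after): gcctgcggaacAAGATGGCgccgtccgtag
The ERR spelling was found in Ndufb2 and Sdhd and is shown for Sdhd, an anchor of complex II.
Sdhd (chr9:50603800-50603824, minus strand, 37 bases after): gggttgtagagTGACCTTgagccct
All these genes had lower means 5 days after I/R than after sham in FFFF hearts, as did every other member.

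Values are log2 intensities after the authors' normalization, and differences are also given as percent of the sham level on the linear scale. Levels of different genes are not compared, since each probe set has its own brightness. Over all arrays the features ran from 3.49 to 13.93 with a median of 4.85 per array. The means of Ndufb3, Cox5b and Cox7b lay below that median, and those of the other members lay between 5.96 and 12.98. Camk2d and Camk2g, the genes deleted in DKO, read below every FFFF array of the same day in all DKO arrays at sham and at 5 days. Replicate 1 of DKO at 1 day read 9.71 for Camk2d and 7.10 for Camk2g, within the FFFF range, so counts, medians and overlaps for DKO at 1 day are also given without it where it moves them. Xist and the Y-linked Eif2s3y showed that replicates 1 and 2 of both 5-day groups were male and all other arrays female. The cardiomyocyte genes, which check the tissue label, had group means between 12.12 and 12.62. Nothing in the labels states that replicates are separate animals, so p-values measure the spread between these samples, and 3 arrays a group limit the precision.

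To determine whether the subunits changed after I/R, each group was compared with the sham group of its genotype in a linear model of all 6 groups (limma, two-sided, with Benjamini-Hochberg adjusted p over the whole array and calls under 0.05). At 1 day in FFFF hearts, all 52 subunits had lower means than in sham hearts, with a median difference of -0.43 on the log2 scale. The complex I subunit Ndufs3 and the complex III subunit Uqcrfs1 were the 2 that passed the test, both lower, beside 5.79% of all features called lower. These 2 calls are no more than the share of all features. In 42 of 52 members all 3 arrays at 1 day lay below all 3 sham arrays, as they did for 18% of all features. At an unadjusted p under 0.05, 26 members were lower, while 26.1% of all features passed that limit in either direction. The median difference was -0.47 for complex I, -0.62 for complex II, -0.44 for complex III and -0.33 for complex IV. The mean level of complex II went from 11.46 ± 0.01 (SD, n = 3 arrays) to 10.84 ± 0.29, and that of complex IV from 9.84 ± 0.01 to 9.48 ± 0.17. With the FFFF sham and 1-day groups fitted alone 16 members passed, and leaving out single arrays gave from 0, without any 1 of the 6 sham arrays among others, to 27, without FFFF I/R 5 days replicate 1, with 10 without FFFF I/R 1 day replicate 2 and 8 without FFFF I/R 5 days replicate 3.

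At 5 days in FFFF hearts, 47 of the 52 subunits fell and 0 rose, with a median difference of -0.82 over all 52, or 56.7% of the sham level, while the median over all features was -0.02. Of all features, 10% were called lower. Complex I had 29 of 31 members called (median of all 31, -0.84), complex II 4 of 4 (-0.91), complex III 6 of 7 (-0.75) and complex IV 8 of 10 (-0.67). In 46 members all arrays at 5 days lay below all sham arrays, compared with 18.5% of all features. With the FFFF sham and 5-day groups fitted alone, 1 member passed. Without FFFF I/R 5 days replicate 3 the count was 18, without replicate 2 it was 23, without replicate 1 it was 51, and without FFFF sham replicate 1 it was 29.

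**Figure D1:**
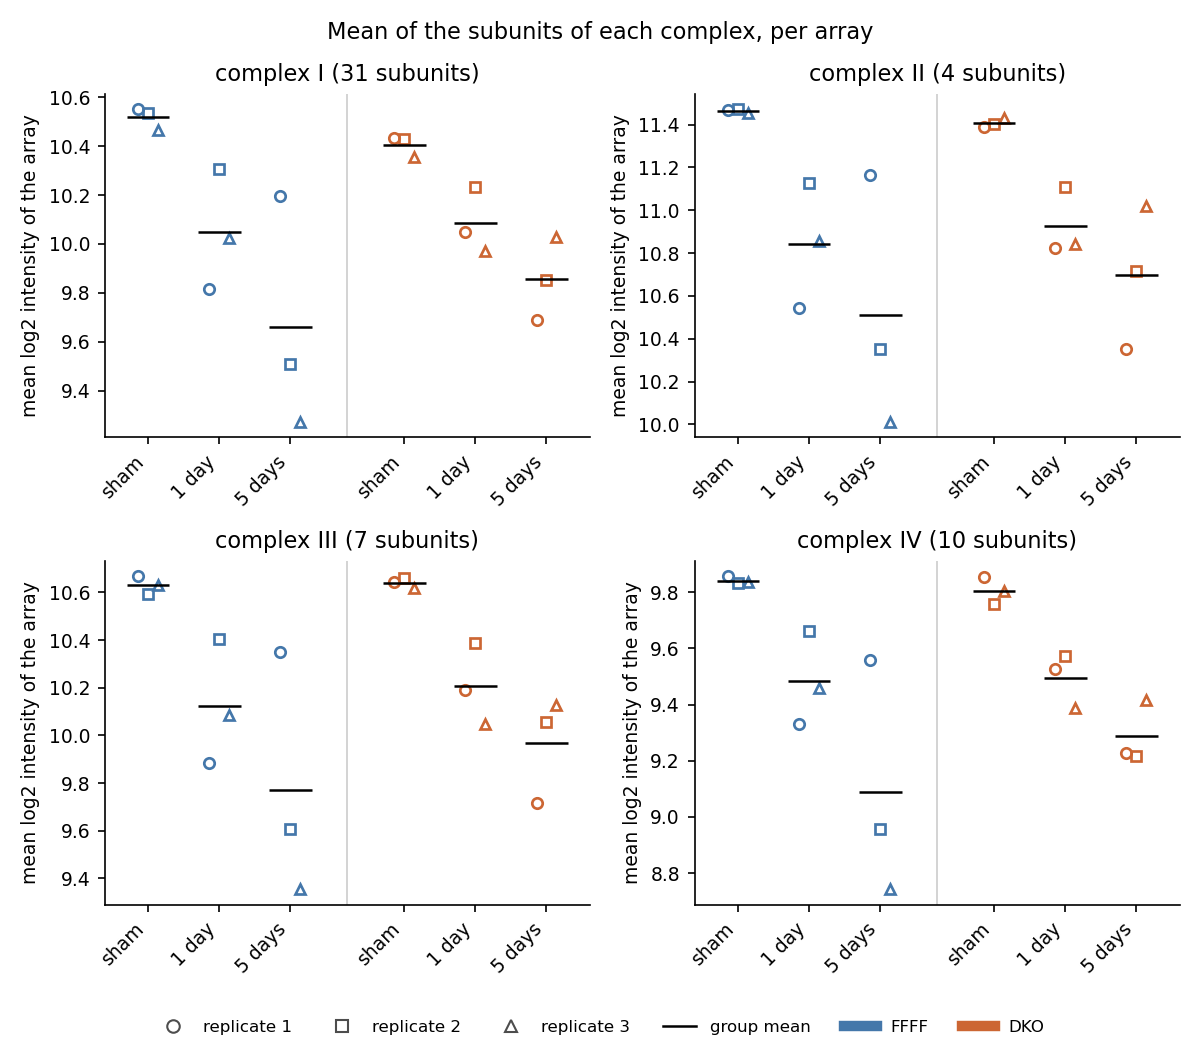
Mean log2 intensity (y axis) of the subunits of complexes I to IV in each of the 18 arrays, by group (x axis: sham, I/R 1 day, I/R 5 days). Points are arrays, marked by replicate number, and black lines are group means. In all 4 complexes every I/R array lies below every sham array of its genotype, and the 3 FFFF arrays at 5 days are the most spread, with replicate 1 on top.

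Complex I begins with the subunits that accept electrons. Ndufv1 carries the flavin that oxidizes NADH, and it read 11.26, 11.16 and 11.18 in FFFF sham, 10.48, 11.01 and 10.64 at 1 day, and 11.04, 10.11 and 9.87 at 5 days (replicates 1 to 3). All values after I/R lay below those of sham, and at 5 days the difference was -0.86 (SE 0.24, limma adjusted p = 0.0247). Ndufs1, the largest iron-sulfur subunit, read 11.37, 11.43 and 11.37 in sham and 10.94, 10.22 and 9.56 at 5 days, a difference of -1.15 (SE 0.28, adjusted p = 0.0126). Ndufs7, which holds the last iron-sulfur cluster before coenzyme Q, went from 13.06, 12.79 and 12.82 to 12.59, 11.74 and 11.44 (-0.96, SE 0.25, adjusted p = 0.0186). The groups did not overlap in any of these subunits, and replicate 1 was nearest to sham at 5 days in each. Ndufs8, another iron-sulfur subunit, had the smallest p of complex I. It read 11.07, 11.12 and 10.87 in sham, 10.28, 10.79 and 10.57 at 1 day and 10.63, 9.85 and 9.96 at 5 days, where it stood at 54.6% of sham (-0.87, SE 0.17, adjusted p = 0.00423). All 6 catalytic core subunits among the members fell at 5 days, with differences between -1.21 and -0.83.

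Among the accessory subunits of complex I, 23 of 25 fell at 5 days in FFFF hearts, with a median difference of -0.82. Ndufa9, at the joint of the matrix arm and the membrane arm, read 11.75, 11.67 and 11.56 in sham and 11.20, 10.53 and 10.33 at 5 days (-0.97, SE 0.19, adjusted p = 0.00473). Ndufa12, which is added to the matrix arm late in assembly, went from 11.68, 11.86 and 11.60 to 11.23, 10.50 and 10.12 (-1.10, SE 0.22, adjusted p = 0.00487). Ndufb10, a subunit of the membrane arm, had the largest difference of the 52 members and is named for that reason after its values were seen. It stood at 10.14, 9.98 and 10.27 in sham and at 9.55, 8.25 and 8.04 at 5 days, or 35.0% of sham (-1.51, SE 0.34, adjusted p = 0.00822). The 2 members of complex I that did not pass were Ndufs6 and Ndufb11. Ndufs6, a zinc-binding subunit needed late in assembly, read 12.07, 11.98 and 12.04 in sham and 12.17, 11.42 and 11.28 at 5 days (-0.41, SE 0.19, adjusted p = 0.157). Here replicate 1 lay above all sham arrays, and the groups overlapped. Ndufb11 of the membrane arm read 6.50, 6.19 and 6.08 in sham and 6.27, 5.90 and 5.00 at 5 days (-0.53, SE 0.27, adjusted p = 0.203).

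Complex II is the smallest of the 4 complexes and the one that is also an enzyme of the citric acid cycle. Its flavoprotein Sdha, which oxidizes succinate, read 12.46, 12.46 and 12.56 in FFFF sham, 11.82, 12.30 and 12.12 at 1 day, and 12.10, 11.52 and 11.01 at 5 days (-0.95 at 5 days, SE 0.22, adjusted p = 0.0107). Its iron-sulfur subunit Sdhb went from 11.41, 11.29 and 11.34 in sham to 11.02, 10.32 and 10.12 at 5 days, or 55.0% of sham (-0.86, SE 0.18, adjusted p = 0.00643). Replicate 1 was again nearest to sham in both. Of the membrane anchors that bind coenzyme Q, Sdhd read 11.14, 11.15 and 11.02 in sham, 9.97, 10.72 and 10.44 at 1 day and 10.90, 10.12 and 10.17 at 5 days, with differences of -0.73 at 1 day (adjusted p = 0.0553) and -0.71 at 5 days (adjusted p = 0.047). It was the 1 member whose mean at 5 days was not below that at 1 day, by 0.02. Sdhc differed from sham by -0.84 at 1 day (adjusted p = 0.154) and by -1.30 at 5 days (adjusted p = 0.0235).

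In complex III, the subunits that carry electrons had the largest differences. Uqcrfs1, the Rieske iron-sulfur protein, read 9.15, 9.24 and 9.01 in FFFF sham, 7.85, 8.64 and 8.24 at 1 day, and 8.51, 7.41 and 7.48 at 5 days. It was lower at 1 day (-0.89, SE 0.26, adjusted p = 0.0419) and at 5 days, where it stood at 39.7% of sham (-1.33, SE 0.26, adjusted p = 0.0046). Cyc1, cytochrome c1, went from 10.69, 10.71 and 10.65 to 9.71, 10.28 and 9.85 at 1 day and 10.32, 9.13 and 8.69 at 5 days (-1.30 at 5 days, SE 0.32, adjusted p = 0.0124). Each array after I/R lay below each sham array in both genes. The core protein Uqcrc2, which has no redox group, moved less, from 12.20, 12.23 and 12.12 to 11.85, 11.60 and 11.35 at 5 days (-0.58, SE 0.13, adjusted p = 0.00902). The small subunit Uqcr10 was the member of complex III that did not pass. It read 10.45, 10.56 and 10.64 in sham and 10.33, 10.01 and 9.63 at 5 days, groups that did not overlap (-0.56, SE 0.20, adjusted p = 0.0731).

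In complex IV, the largest differences at 5 days were those of Cox7a1 and Cox8b, isoforms made in striated muscle. Cox7a1, the heart and muscle form of subunit 7a, read 12.65, 12.59 and 12.63 in FFFF sham, 12.11, 12.46 and 12.21 at 1 day, and 12.08, 11.31 and 10.71 at 5 days, or 41.9% of sham (-1.26, SE 0.25, adjusted p = 0.00481). Cox7a1 and the complex I subunit Ndufa3 were also the 2 members called lower at 5 days than at 1 day (-0.89, adjusted p = 0.0484, and -0.36, adjusted p = 0.0488). With 3.2% of all features called lower there, these 2 calls are near the share of all features. Without FFFF I/R 5 days replicate 1 the count of members was 36, without DKO I/R 1 day replicate 1 it was 1, without DKO I/R 1 day replicate 2 it stayed at 2, and without any other array it was 0. Cox4i1, the largest nuclear-encoded subunit of complex IV, went from 11.85, 11.54 and 11.48 to 11.51, 10.60 and 10.40 at 5 days (-0.79, SE 0.21, adjusted p = 0.0179). Its replicate 1 at 5 days lay within the sham range, so the groups overlapped. Cox6b1, on the side that faces cytochrome c, went from 10.72, 10.82 and 10.88 to 10.53, 9.92 and 9.97 (-0.67, SE 0.14, adjusted p = 0.00534). Cox5b was dim, with 4.58, 5.01 and 4.71 in sham and 4.32, 4.24 and 4.19 at 5 days (-0.51, SE 0.13, adjusted p = 0.0145), all below the median of the arrays at 5 days. Cox6c and Cox7a2 did not pass. Cox6c read 7.73, 7.55 and 7.63 in sham and 7.55, 7.05 and 7.14 at 5 days (-0.40, SE 0.18, adjusted p = 0.152), and Cox7a2, the form of subunit 7a found in most tissues, read 9.67, 9.60 and 9.71 and then 9.61, 8.93 and 9.16 (-0.43, SE 0.18, adjusted p = 0.117).

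**Figure D2:**
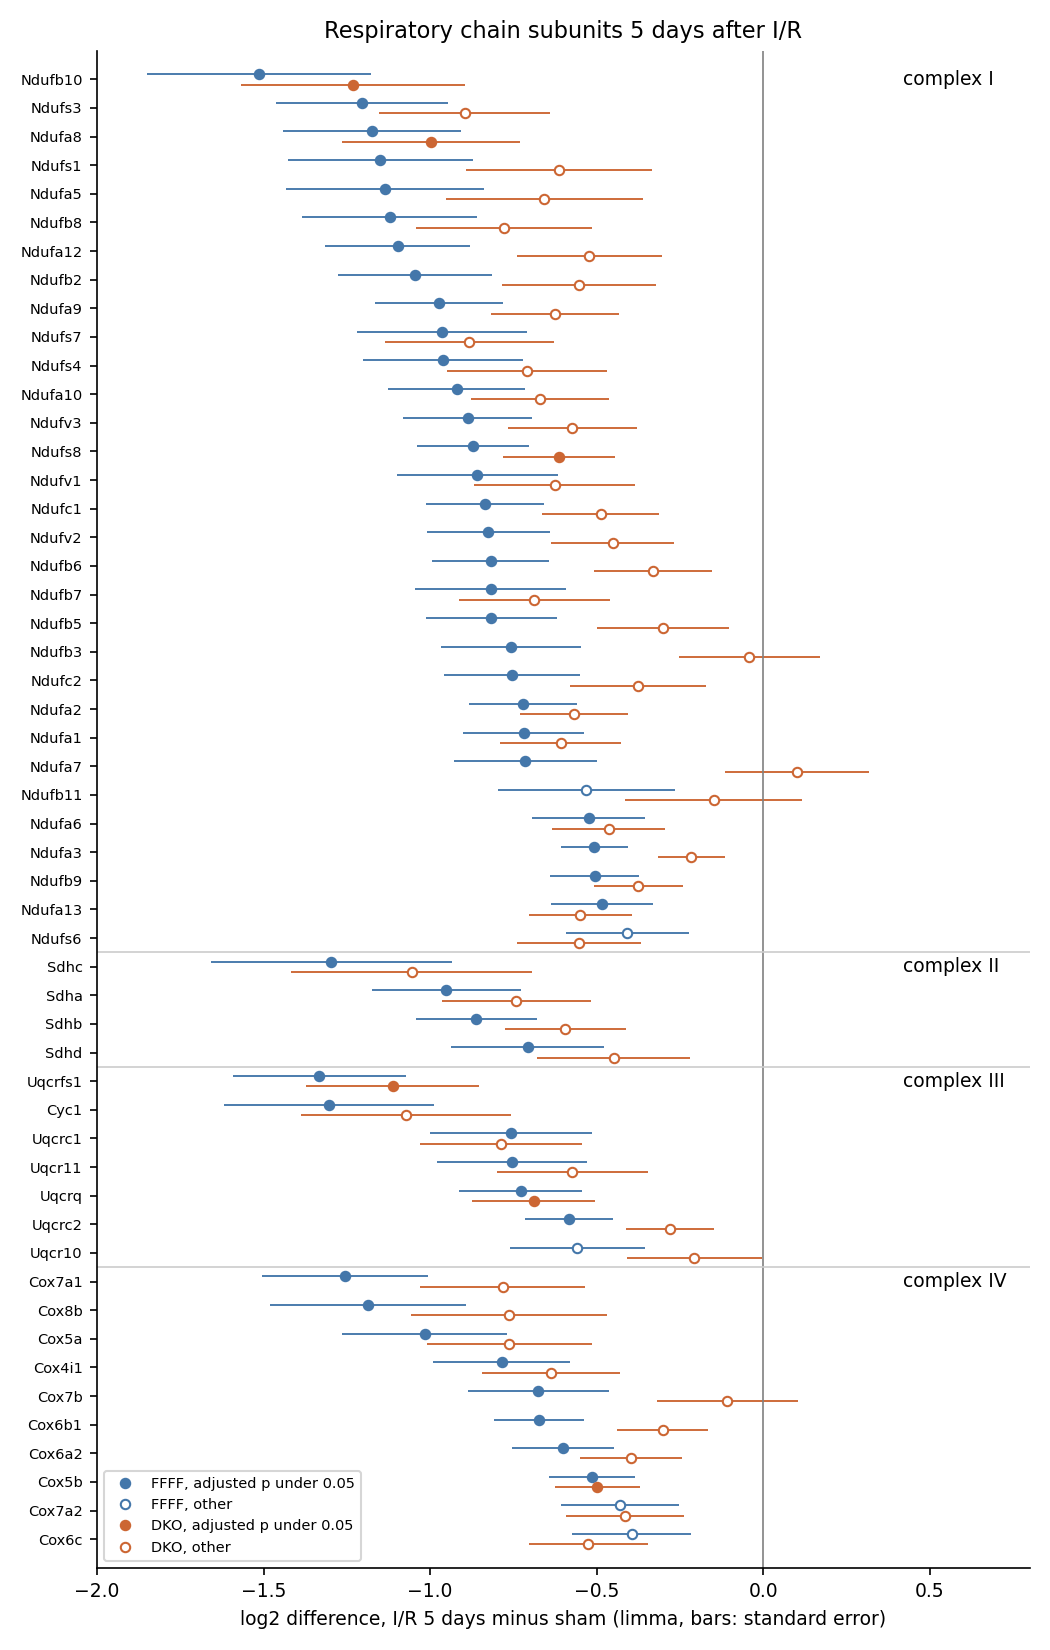
Log2 difference between I/R 5 days and sham (x axis) for each of the 52 subunits (rows), in FFFF and in DKO hearts, from the limma model, with bars of 1 standard error. Filled points have an adjusted p under 0.05 in the model of all groups: 47 in FFFF and 6 in DKO, all below 0. With each genotype's sham and 5-day groups fitted alone, more members passed in DKO than in FFFF.

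Next, the muscle isoforms of complex IV were set against their counterparts from other tissues within each array. Of the counterparts, Cox6a1 rose in FFFF hearts while Cox8a did not pass. Cox6a1 read 12.04, 11.97 and 11.95 in sham, 12.58, 12.17 and 12.37 at 1 day and 12.23, 12.24 and 12.51 at 5 days (0.39 at 1 day, adjusted p = 0.0236, and 0.34 at 5 days, adjusted p = 0.027). Its muscle form Cox6a2 went the other way, from 13.39, 13.20 and 13.23 in sham to 12.82, 13.02 and 12.99 at 1 day and 13.17, 12.52 and 12.34 at 5 days (-0.60 at 5 days, SE 0.15, adjusted p = 0.0158). The difference Cox6a2 minus Cox6a1 was 1.29 ± 0.06 (SD, n = 3) in sham, 0.57 ± 0.31 at 1 day and 0.35 ± 0.56 at 5 days, and no array after I/R overlapped with sham. Cox8b, the muscle form of subunit 8, read 11.95, 11.80 and 11.93 in sham and 11.69, 10.40 and 10.02 at 5 days (-1.19, SE 0.29, adjusted p = 0.0138), while Cox8a read 10.24, 10.16 and 10.25 in sham and 10.35, 10.12 and 10.44 at 5 days (0.09, SE 0.12, adjusted p = 0.712). Cox8b minus Cox8a thus went from 1.67 ± 0.04 (SD, n = 3) in sham to 1.25 ± 0.33 at 1 day and 0.40 ± 0.89 at 5 days. Cox7a1 minus Cox7a2 was 2.96 ± 0.04 (SD, n = 3) in sham and 2.93 ± 0.04 at 1 day, groups that overlapped, and 2.14 ± 0.51 at 5 days, where they did not.

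The same within-array differences were lower after I/R in DKO hearts. Cox6a2 minus Cox6a1 was 1.01 ± 0.05 (SD, n = 3) in DKO sham, 0.43 ± 0.09 at 1 day and 0.51 ± 0.19 at 5 days. Cox8b minus Cox8a was 1.40 ± 0.03 (SD, n = 3) in sham, 0.77 ± 0.18 at 1 day and 0.81 ± 0.23 at 5 days. Neither pair overlapped with sham at either day, with or without DKO I/R 1 day replicate 1, whose values of 0.52 and 0.94 were the highest of that day. Cox7a1 minus Cox7a2 went from 2.67 ± 0.10 (SD, n = 3) to 2.33 ± 0.61 and 2.30 ± 0.30, with overlap at both days. Exact two-sided permutation tests over the arrays gave p = 0.1, the smallest that 3 against 3 arrays allow, for each comparison without overlap (0.133 after Benjamini-Hochberg adjustment over 12 tests), so the design cannot pass 0.05 here. Between the genotypes, the sham arrays did not overlap in any of the 3 pairs, with the difference lower in DKO, which is given as values noticed after the fact and without a test. Of single features, 15.5% did not overlap there, in either direction. Cox8b minus Cox8a, for example, read 1.71, 1.64 and 1.68 in FFFF sham and 1.41, 1.37 and 1.42 in DKO sham. The mean of Cox8b was 11.89 in FFFF and 11.96 in DKO sham, and that of Cox8a 10.22 and 10.56. In the same order, Cox6a2 stood at 13.28 and 13.23 and Cox6a1 at 11.985 and 12.22. Cox7a1 stood at 12.625 and 12.44 and Cox7a2 at 9.66 and 9.77.

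**Figure D3:**
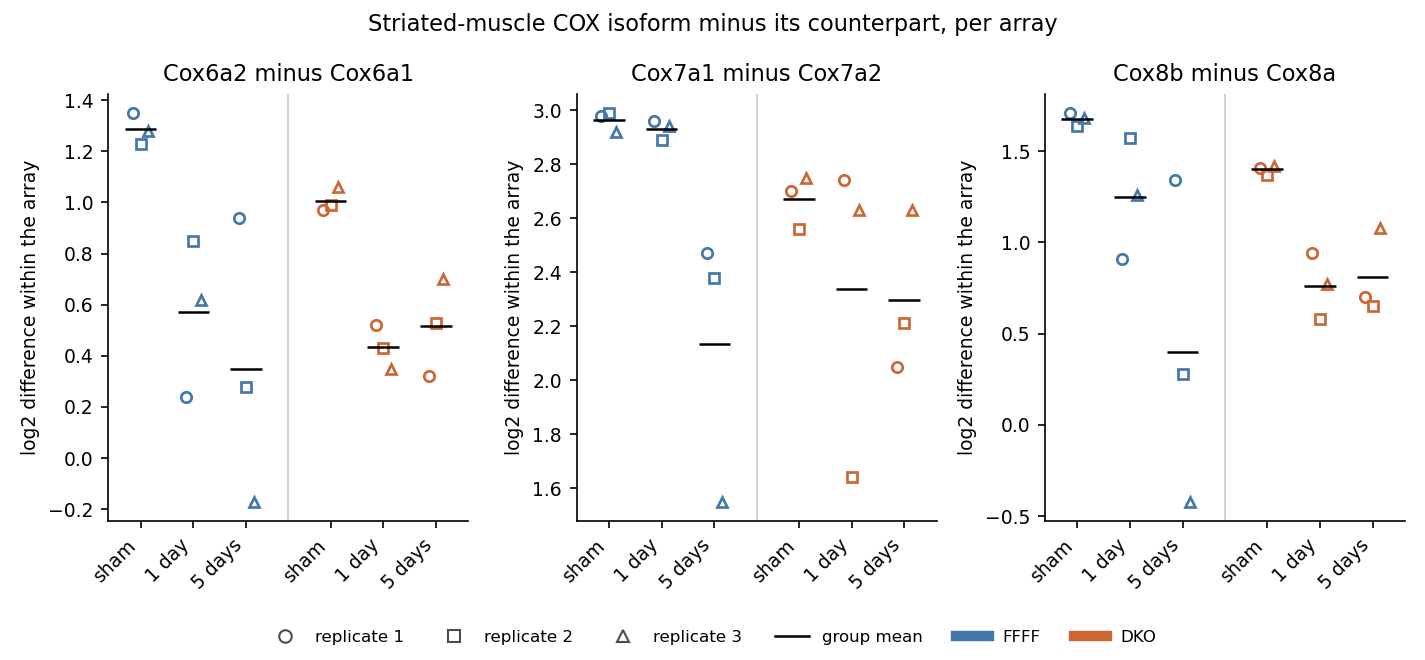
Log2 value of a striated-muscle isoform of complex IV minus that of its counterpart from other tissues (y axis), in each of the 18 arrays by group (x axis), for subunits 6a, 7a and 8. Points are arrays, marked by replicate, and black lines are group means. For 6a and 8 every I/R array lies below every sham array of its genotype, and for 7a this holds in FFFF at 5 days alone.

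In DKO hearts, the subunits were also lower after I/R, but few passed the test in the model of all 6 groups. At 1 day, 0 members were called, beside 2.54% of all features called lower, and 13 had an unadjusted p under 0.05, a share near the 22.1% of all features. The median difference was -0.32, 51 of 52 members had a lower mean than in sham, and the arrays lay fully below sham in 32 members and in 12.3% of all features. Without DKO I/R 1 day replicate 1 the count stayed at 0, the median was -0.31, and the arrays lay below sham in 34 members and in 15.2% of all features. In turn, 6 members passed without FFFF I/R 5 days replicate 1 and 1 without DKO sham replicate 3 or DKO I/R 1 day replicate 2. At 5 days, 6 members fell, beside 2.84% of all features. They were Ndufb10, Ndufa8 and Ndufs8 of complex I, Uqcrfs1 and Uqcrq of complex III and the dim Cox5b of complex IV (4.36, 4.15 and 4.32). The median difference of all 52 was -0.57, or 67.2% of sham, and 41 members had an unadjusted p under 0.05, as did 23% of all features. All arrays lay below sham in 46 members and in 18.2% of all features. From 1 day to 5 days 0 members were called (median -0.29), with 2.14% of all features called lower, and 5 had an unadjusted p under 0.05 beside 19.3% of all features. The count was 2 without FFFF I/R 5 days replicate 1 and 1 without DKO I/R 1 day replicate 3.

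The count at 5 days in DKO hearts moved with single arrays. With the DKO sham and 5-day groups fitted alone, 38 members passed, and without FFFF I/R 5 days replicate 1 the count was also 38, but 0 passed without DKO sham replicate 1 or 2, without DKO I/R 5 days replicate 1 or 2, or with sex as a covariate. It was 25 without FFFF I/R 5 days replicate 3, 11 without DKO I/R 1 day replicate 2, 3 without DKO I/R 1 day replicate 1 or FFFF I/R 1 day replicate 3, 2 without FFFF sham replicate 1 or 2 and 1 without FFFF or DKO sham replicate 3. Among the named genes, Ndufs8 read 10.97, 10.93 and 10.95 in DKO sham and 10.31, 10.24 and 10.46 at 5 days (-0.61, SE 0.17, adjusted p = 0.0454). Uqcrfs1 went from 9.11, 9.21 and 9.04 in sham to 8.23, 8.56 and 8.08 at 1 day and 7.76, 7.95 and 8.30 at 5 days (-1.11 at 5 days, SE 0.26, adjusted p = 0.0266). In this gene all DKO arrays after I/R lay below sham, while those of 1 and 5 days overlapped. Sdhb stood at 11.22, 11.16 and 11.31 in sham and at 10.43, 10.62 and 10.86 at 5 days (-0.60, SE 0.18, adjusted p = 0.0657), and Cox7a1 at 12.54, 12.35 and 12.43 and then 11.48, 11.63 and 11.86 (-0.78, SE 0.25, adjusted p = 0.0748). Ndufa7, an accessory subunit of the matrix arm, was the 1 member with a higher mean at 5 days than in sham, by 0.10 (adjusted p = 0.849).

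To address the role of CaMKII in these changes, DKO and FFFF hearts were compared directly at each day. Of the 52 subunits, 0 passed in sham hearts, 0 at 1 day and 0 at 5 days in limma, with 0 called on each day in a gene-wise analysis of variance too. At an unadjusted p under 0.05, 1 member passed on each day, beside 5.96% of all features in sham, 6.7% at 1 day and 2.41% at 5 days. Of all features, 0.00817% were called in sham, 0% at 1 day and 0% at 5 days, in either direction. In sham hearts the median difference, DKO minus FFFF, was -0.06. Complex I stood at 10.52 ± 0.05 (SD, n = 3) in FFFF and 10.41 ± 0.05 in DKO sham, and every DKO array lay below every FFFF array in this mean, as a description without a test. The same held for complex II, with 11.45 to 11.47 in FFFF and 11.39 to 11.43 in DKO sham. It also held for the mean of all 52 members (10.44 to 10.50 and 10.37 to 10.425), while complexes III and IV overlapped. Lists outside the members, such as outer membrane proteins (9.99 to 10.03 and 9.89 to 9.94), were separated in this way too. Some marker lists of other cells were higher in the same DKO arrays, without overlap. The extracellular matrix list read 7.90 to 7.95 in FFFF and 8.54 to 8.94 in DKO sham. Resting fibroblast genes read 8.92 to 9.04 and 9.425 to 9.74, and leukocyte genes 6.25 to 6.325 and 6.54 to 6.58. Macrophage genes were also higher without overlap, while the endothelial, neutrophil and cardiomyocyte lists overlapped. The part of these cells was not tested. Among single members the sham arrays of the genotypes did not overlap in 12 of 52, with DKO below in 9 and above in 3, beside 15.5% of all features. Ndufa12, for example, read 11.31, 11.22 and 11.39 in DKO sham, below its FFFF values above (-0.41, 95% interval -0.87 to 0.06). At 1 day the arrays overlapped in all 52 members, where 9.82% of all features did not. Without DKO I/R 1 day replicate 1, Cox7a1 did not overlap, with 11.71 and 12.04 in DKO below 12.11, 12.46 and 12.21 in FFFF, beside 21.2% of all features. The median difference at 1 day was 0.05. It was 0.07 without DKO I/R 1 day replicate 1, but it turned to -0.08 without FFFF I/R 1 day replicate 1 and to -0.02 without DKO I/R 1 day replicate 2, and it rose to 0.20 without FFFF I/R 1 day replicate 2. The mean at 5 days was higher in DKO in 47 of 52 members, with a median of 0.20, but the arrays of the genotypes overlapped in all members except Ndufa7, and 7.56% of all features did not overlap. That median was 0.00 without FFFF I/R 5 days replicate 3 and 0.44 without replicate 1 of the same group. The 95% intervals of single differences had a median half-width of 0.45, and they held 0 in 51 of 52 members at each day.

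The member with the smallest p differed from day to day. In sham hearts it was Ndufa7, with 9.21, 9.61 and 8.77 in FFFF and 8.99, 8.96 and 8.17 in DKO (-0.49, 95% interval -0.95 to -0.03, adjusted p = 0.8). At 1 day it was the dim Ndufb3, with 4.26, 4.64 and 4.53 in FFFF and 3.86, 3.86 and 4.32 in DKO (-0.46, 95% interval -0.92 to -0.01, adjusted p = 0.735). At 5 days it was Ndufa3, a small subunit of the membrane arm, with 12.14, 11.65 and 11.77 in FFFF and 12.07, 12.12 and 12.18 in DKO (0.27, 95% interval 0.06 to 0.49, adjusted p = 1). In each of these genes the genotypes overlapped on the named day. For Uqcrfs1, Ndufs8 and Cox7a1 the difference at 5 days was 0.21 (95% interval -0.35 to 0.76), 0.19 (-0.17 to 0.55) and 0.29 (-0.25 to 0.82).

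The response to I/R was then compared between the genotypes as an interaction, (DKO I/R minus DKO sham) minus (FFFF I/R minus FFFF sham). At 1 day 0 members passed, and 0 did so at 5 days, beside 0.00409% and 0% of all features. The unadjusted p was under 0.05 in 0 members at 1 day and in 2 at 5 days, beside 4.6% and 4% of all features, so the 2 members are no more than the share of all features. The median of the 52 interactions was 0.10 at 1 day, with 40 positive, and 0.26 at 5 days, with 48 positive, and single arrays moved both. At 1 day it was 0.12 without DKO I/R 1 day replicate 1, and -0.01 and 0.22 without replicate 1 and replicate 2 of the FFFF arrays of that day. At 5 days it was 0.06 without FFFF I/R 5 days replicate 3 and 0.55 without replicate 1. The 2 members were Ndufa7 (0.82, SE 0.30, adjusted p = 0.999) and Ndufb3 (0.72, SE 0.30, adjusted p = 0.999). In Ndufa7 the array of DKO sham replicate 3, at 8.17, stood below the other arrays of its group. Ndufb3 read 4.89, 4.99 and 4.49 in FFFF sham, 4.26, 4.05 and 3.78 in FFFF at 5 days, 4.28, 4.67 and 4.58 in DKO sham and 4.12, 4.93 and 4.35 in DKO at 5 days, a dim gene with a high DKO replicate 2. So the 47 calls in FFFF and 6 in DKO hearts at 5 days are not shown to differ between the genotypes for any member. The order of these counts also turned when each pair of groups was fitted alone, with more calls in DKO than in FFFF.

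The subunits varied together among the arrays of a group. The median SD of the 52 members was 0.08 in FFFF sham and 0.08 in DKO sham, below the 0.10 and 0.11 of all features, but 0.25 and 0.48 in FFFF at 1 and 5 days, where all features had 0.12 and 0.13. In DKO it was 0.19 at 1 day and 0.22 at 5 days, against 0.14 and 0.10. FFFF I/R 5 days replicate 1 held the highest value of its group in 51 of 52 members and replicate 3 the lowest in 41. At 1 day in FFFF, replicate 2 was highest in 50 members and replicate 1 lowest in 47. In DKO, replicate 2 was highest in 39 members at 1 day and replicate 3 in 43 at 5 days. The lowest DKO array at 1 day was replicate 3 in 31 members, replicate 1 in 13 and replicate 2 in 8, and at 5 days it was replicate 1 in 37. The mean over the 52 members was 10.17, 9.48 and 9.24 in the FFFF arrays at 5 days and 9.66, 9.83 and 10 in the DKO arrays, with both sham groups between 10.37 and 10.50. Replicate 3, the female array of each 5-day group, was the lowest in FFFF and the highest in DKO, and both lay below all sham arrays. Male arrays occurred in the 5-day groups alone, so sex and day are partly mixed. The part of sex in these means was not tested.

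Markers of other cells also changed after I/R, not all in the same direction. Because whole tissue was measured, fewer cardiomyocytes and less RNA of a gene per cardiomyocyte cannot be told apart. The 15 pan-leukocyte genes had a mean of 6.25 to 6.33 in FFFF sham arrays, 7.55 to 8.61 at 1 day and 7.50 to 10.17 at 5 days, and 12 of them rose at 1 day and 15 at 5 days in FFFF, where 5.93% and 8.26% of all features were called higher. Within the FFFF groups, the array with the lowest subunit mean had the highest leukocyte mean at both days, and the array with the highest subunit mean had the lowest. At 5 days these were replicate 3, with 9.24 for the subunits and 10.17 for the leukocyte genes, and replicate 1, with 10.17 and 7.50. In DKO hearts the leukocyte mean ran from 6.54 to 6.58 in sham, 7.18 to 8.53 at 1 day and 8.17 to 8.79 at 5 days. There the array with the lowest subunit mean had the highest leukocyte mean at 5 days, and at 1 day only if replicate 1 is left out. Macrophage genes rose at 5 days in FFFF in 7 of 7, genes of the extracellular matrix and myofibroblasts in 12 of 13 with a median of 4.07, and endothelial genes fell in 1 of 12, a share near that of all features. Neutrophil genes rose in 8 of 8 at 1 day, with a median of 3.21, and in 0 of 8 at 5 days in limma, where 0 had an unadjusted p under 0.05. The part of these cells in the values of the subunits was not tested.

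The 20 structural genes of cardiomyocytes were set beside the subunits as a list of a single cell type, while the subunits were measured over all cells of the tissue. Their mean was 12.58 to 12.65 in FFFF sham arrays, 12.13 to 12.56 at 1 day and 11.74 to 12.54 at 5 days, and at 5 days 6 fell and 1 (Des, the muscle intermediate filament) rose, with a median difference of -0.47 beside the -0.82 of the subunits. The mean of the subunits minus the mean of this list was -2.20 to -2.10 in FFFF sham, -2.34 to -2.30 at 1 day and -2.60 to -2.37 at 5 days, without overlap with sham at either day. In DKO it was -2.25 to -2.20 in sham, -2.41 to -2.22 at 1 day and -2.51 to -2.36 at 5 days, without overlap at 5 days. At 1 day only replicate 1, at -2.22, overlapped with sham, and the other arrays, at -2.41 and -2.33, lay below it. FFFF I/R 5 days replicate 1, the array nearest to sham, had a difference of -2.37, while its structural genes, at 12.54, stood just under the lowest sham array. These within-array values are a description without a test. They do not tell fewer cardiomyocytes apart from less RNA of a gene per cardiomyocyte.

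**Figure D4:**
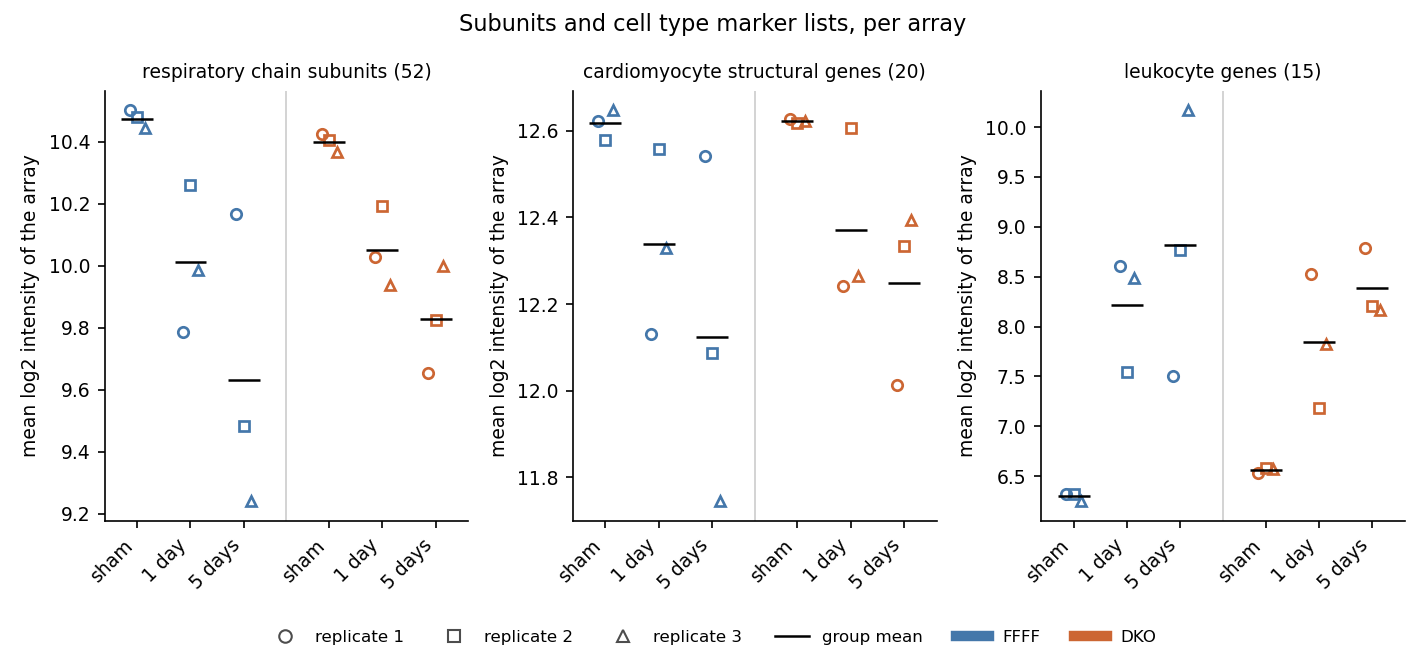
Mean log2 intensity (y axis) of the 52 subunits, 20 structural genes of cardiomyocytes and 15 leukocyte genes in each of the 18 arrays, by group (x axis). Points are arrays, marked by replicate, and black lines are group means. In FFFF hearts at 5 days, replicate 3 is lowest for the subunits (9.24) and highest for the leukocyte genes (10.17), and replicate 1 is the reverse (10.17 and 7.50).

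Other genes of the pathway are given by lists, all for FFFF hearts at 5 days unless stated. There, 10% of all features were called lower in the model of all 6 groups. Counts of these lists with the groups fitted alone are not given. Of 11 ATP synthase subunits, 8 fell and 0 rose (median -0.66), among them Atp5k and Atp5c1, and at 1 day 0 had passed. The assembly factors, which build the complexes and are not part of them, fell in 13 of 14 for complex I, 4 of 4 for complex II, 5 of 6 for complex III and 10 of 19 for complex IV. Lyrm7, a complex III assembly factor that acts on the Rieske protein Uqcrfs1, differed by -1.41 (SE 0.18, adjusted p = 0.000578), and Acad9 of complex I assembly by -0.93 (SE 0.16, adjusted p = 0.00265). Of the mobile carriers and the enzymes that make coenzyme Q, 10 of 11 fell (median -1.16), with -0.96 for Cycs, which is cytochrome c (adjusted p = 0.00209). Mitochondrial ribosomal proteins fell in 18 of 21 (median -0.80), and proteins of the outer membrane in 7 of 10 (median -0.63), with -0.66 for the channel Vdac1 (adjusted p = 0.0119). Among 12 other subunits of complexes I to IV that were not members, 4 fell and 1, Cox6a1, rose. Those that fell include Cox4i2, also a complex IV isoform of other tissues (-0.56, SE 0.15, limma adjusted p = 0.021).

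In DKO hearts at 5 days, where 2.84% of all features were called lower, ATP synthase fell in 1 of 11 (median -0.50), complex I assembly factors in 3 of 14 (median -0.48), complex II assembly factors in 0 of 4, complex III assembly factors in 2 of 6, complex IV assembly factors in 2 of 19, proteins of the outer membrane in 1 of 10, the carriers and coenzyme Q enzymes in 1 of 11 (median -0.85) and mitochondrial ribosomal proteins in 3 of 21 (median -0.54). Whether these lists differ between the genotypes was not tested.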

How the data were processed

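RNA of mouse left ventricle was hybridised to Affymetrix mouse gene 2.0 ST arrays. The authors made the deposited log2 values by RMA with quantile normalization and a custom CDF with 1 feature per Entrez gene. No version of RMA is named in the sources used here. No further scaling was done. Since quantile normalization gives all arrays the same distribution, a change in total RNA cannot be seen. Features were named through the platform's gene table (23281) and a gene reference (556), and 642 had no name. The comparisons were fitted with limma 3.58.1 in R 4.3.3, in a model of 6 groups without a replicate block, with eBayes and Benjamini-Hochberg adjustment over 24479 features. Within-array differences were tested by exact permutation in scipy 1.17.1. On simulated data for FFFF at 5 days, 54% of 50 genes changed by 0.5 (log2) were recovered. For 50 genes changed by 1 the share was 84%, and 8 calls were false. The members had a median SD of 0.08 in FFFF sham and 0.48 at 5 days, and they varied together. Whether the recovery holds for them was not tested.

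The members and lists were chosen with earlier results of these data known. Array values are given, by rule, for the members with the smallest p in each complex at 5 days in FFFF, those that did not pass or lay nearest 0, catalytic and redox subunits, the isoform pairs, and the smallest p of each genotype comparison. Other lists give at most 2 genes each, those with the smallest p. The labels number the replicates 1 to 3 in every group. At 1 day the deviations of same-numbered FFFF and DKO arrays correlated (r = 0.38, 0.53 and 0.36), a hint from the data that they are paired there, and a fit of these groups with that block gave 0 calls as well. Alternatives were array weights, an intensity trend with robust moderation, a gene-wise analysis of variance (the methods' test), a filter on dim features, further normalization, the replicate block, sex in the model, each pair of groups fitted without the rest, a stricter threshold and single arrays omitted.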

Additional observations from a re-analysis of the deposited data

How the results depend on the processing

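Counts of called members moved under many alternatives. The medians over all 52 members kept their sign in the comparisons of I/R with sham under further quantile normalization, centring of the arrays and each array left out, the alternatives for which they were computed. For FFFF at 1 day (2 members), 4 passed with an intensity trend, 23 with array weights, 16 with the groups alone, 7 after the dim filter, and 0 by analysis of variance, with the sex covariate or at an adjusted p under 0.01. For FFFF at 5 days (47), 1 passed with the groups alone and 19 at 0.01, and 40 to 50 otherwise. For FFFF at 5 days against 1 day (2), the trend gave 1 and array weights 29, and analysis of variance, the groups alone, the sex covariate and the limit of 0.01 gave 0. For DKO at 1 day (0), array weights, the groups alone and the methods' unadjusted 0.01 gave 1 each. For DKO at 5 days (6), 37 passed with array weights, 38 with the groups alone, 18 after the dim filter, 15 at the methods' unadjusted 0.01, and 0 by analysis of variance, with sex or at an adjusted 0.01. The replicate block gave 0 for FFFF at 1 day, 42 for FFFF at 5 days, 0 for FFFF 5 days against 1 day and 1 for DKO at 5 days, and changed no other call. Over all groups same-numbered arrays did not deviate together (median r = -0.005 in 45 pairs). With the groups alone the order of the genotypes at 5 days thus turned, with 1 call in FFFF and 38 in DKO beside 47 and 6. The main model shares 1 estimate of the spread over all groups, and the fits of groups alone do not. The cause of these shifts was not tested.

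Leaving out 1 array gave 0 to 27 calls for FFFF at 1 day, 18 to 51 for FFFF at 5 days, 0 to 36 for FFFF at 5 days against 1 day, 0 to 6 for DKO at 1 day, 0 to 38 for DKO at 5 days and 0 to 2 for DKO at 5 days against 1 day. The highest counts all came without FFFF I/R 5 days replicate 1. Medians then ran from -0.589 to -0.329, -1.091 to -0.639, -0.64 to -0.196, -0.374 to -0.281, -0.651 to -0.537 and -0.378 to -0.163 in the same order. The genotype medians ran from -0.07 to -0.044 in sham, -0.076 to 0.201 at 1 day and -0.003 to 0.442 at 5 days, and the interactions from -0.006 to 0.222 and 0.055 to 0.55. Genotype calls stayed at 0 throughout.

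Single genes near 0 changed sign. With array weights Cox8a at 5 days in FFFF was -0.049 and Ndufb3 at 5 days in DKO 0.111. With sex as a covariate Ndufa7 at 5 days in DKO was -0.05. With 1 array left out, Cox6c, Ndufb11 and Cox7a2 at 1 day in DKO ran from -0.334 to 0.106, -0.35 to 0.07 and -0.307 to 0.026. Cox8a at 1 day ran from -0.099 to 0.013 in FFFF and -0.016 to 0.277 in DKO, and Ndufa7 from -0.37 to 0.05 in FFFF and -0.044 to 0.366 in DKO. At 5 days in DKO, Ndufa7 ran from -0.167 to 0.243 and Ndufb3 from -0.272 to 0.131. The number of arrays limits all comparisons, and dim members (Ndufb3, Cox5b, Cox7b) lie where the arrays separate levels least.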
